A study of Mus musculus with 10 samples.

Results

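The comparison was between mural granulosa cells, which line the wall of the ovarian follicle, and cumulus cells, which are the granulosa cells enclosing the oocyte. Both came from C57BL/6 mice aged 2 months, with 2 mural and 3 cumulus libraries of total RNA, which are 5 of the 10 libraries analysed in the series. The members are those 5 libraries, chosen by cell type, strain and age in the labels and not by any measured value. Cells were handled in a medium that held milrinone, an inhibitor of phosphodiesterase. The protocol text, which is the same for every library, names mice primed with eCG (equine chorionic gonadotropin, which acts like follicle-stimulating hormone) as the origin of mural cells. Whether donors of cumulus cells were primed is not stated in the labels. Cell type and a possible difference in priming therefore cannot be told apart. Nothing in the labels ties a replicate to its own animal or pool, so p-values measure only how these libraries vary, and that variation may be technical. Transcript levels are in FPKM, the fragments assigned to a gene per kilobase of transcript, scaled to the mapped fragments of the library.

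Granulosa cells divide and make estradiol under follicle-stimulating hormone, and those of the follicle wall gain the receptor of luteinizing hormone late in growth. Cumulus cells stay in contact with the oocyte through thin projections and gap junctions, and they receive oocyte-secreted factors of the TGF-beta family such as GDF9 and BMP15. Oocytes use glucose poorly and depend on pyruvate and amino acids handed over by cumulus cells. The basal lamina at the outer edge of the mural layer parts it from the theca, a steroid-making layer with blood vessels.

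The summed FPKM of the 5 libraries lay between 470377 and 603460, and between 11373 and 12320 genes reached 1 FPKM. No source used here gives the read depth, so the counting error behind a low value is unknown. The rank correlation across genes was 0.947 between the mural libraries, 0.896 to 0.946 among the cumulus libraries and 0.794 to 0.883 between the cell types. Granulosa markers were high in both cell types, with 4735 to 7592 FPKM summed over 10 markers in cumulus and 13300 and 12370 FPKM in mural libraries. The 6 mural markers summed to 42.7 to 62.1 FPKM in cumulus libraries and to 1649 and 3338 FPKM in mural libraries 1 and 2, and each of the 6 passed the test as higher. Of the 6 cumulus markers 5 passed as lower in mural cells, and the list summed to 645.3 to 859.6 FPKM against 319.8 and 170.8 FPKM. Both labels thus matched their marker lists, although the members of these lists were chosen with earlier results of these data known.

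Markers of other cells moved with the comparison or with single libraries. The 11 theca and stroma markers summed to 9.78 to 13.7 FPKM in cumulus and to 115.1 and 210.0 FPKM in mural libraries 1 and 2, where 8 of the 9 tested were higher. Endothelial markers summed to 7.06 to 9.07 FPKM in cumulus and to 37.0 and 82.9 FPKM in mural libraries, with 7 of 8 tested higher. Leukocyte markers came to 9.83 to 13.0 FPKM against 29.3 and 72.9 FPKM, with 2 of 9 higher, and smooth muscle markers to 6.76 to 10.7 FPKM against 28.5 and 52.9 FPKM, with 2 of 4 higher. Surface epithelium markers summed to 27.5 to 35.7 FPKM against 58.4 and 38.3 FPKM, with 6 of 9 higher and 1 lower. The lower one, the keratin gene Krt8, made up most of the cumulus sum, at 22.4 to 30.8 FPKM against 17.5 and 11.8 FPKM in mural cells. Krt19 of this list and Emcn of the endothelial list were listed at 0 in all 3 cumulus libraries. Tested genes needed a mean of at least 1 FPKM over the 5 libraries. Markers near 0 in cumulus cells reached it only through their mural values, so they could only come out higher. Of all genes tested 12.5% were higher. Insl3, a peptide hormone that theca cells make in large amounts, was at 0.875 and 1.48 FPKM in the mural libraries and at 1.55, 0 and 0 FPKM in the cumulus libraries. Mural library 2 held more of the stromal, endothelial and leukocyte markers than mural library 1, and less of the erythroid and surface epithelium markers. Oocyte markers followed neither cell type, with sums of 319.4, 4.82 and 1632 FPKM in cumulus libraries 1 to 3 and 212.0 and 24.2 FPKM in the mural libraries. None of the 15 oocyte markers tested passed in limma, none had an unadjusted p under 0.05, and the smallest adjusted p was 0.13, for Kit. In bulk RNA of this kind, fewer cells of a type and less RNA per cell cannot be told apart.

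**Figure D1:**
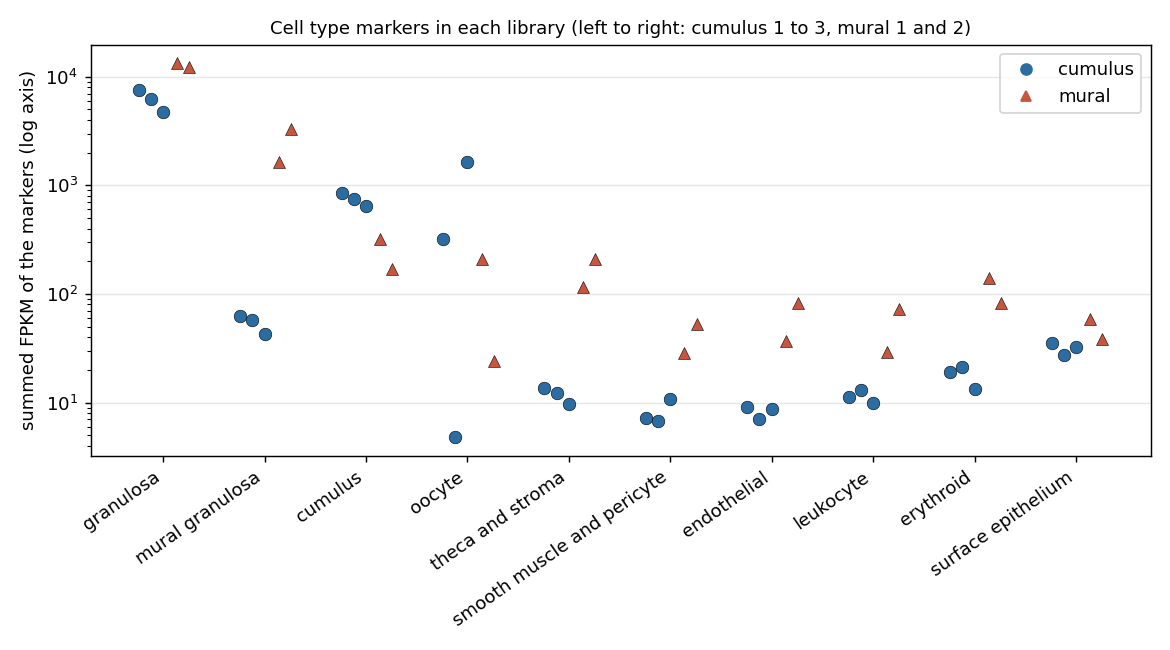
Summed FPKM of each cell type's markers (log axis) in the 3 cumulus libraries (circles) and the 2 mural libraries (triangles). Mural markers separate the cell types, from 62.1 FPKM at most in cumulus to 1649 FPKM at least in mural cells, while oocyte markers range from 4.82 to 1632 FPKM among the cumulus libraries alone.

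Of 12310 genes with a mean of at least 1 FPKM over these libraries, 1533 were higher and 1799 lower in mural cells at an adjusted p under 0.05 (limma on log2(FPKM + 1), two-sided, Benjamini-Hochberg adjustment). These are 12.5% and 14.6% of the genes tested, or 27.1% in either direction. The large differences lay on the mural side: 911 genes (7.4%) were at least 2-fold higher and 572 (4.65%) at least 2-fold lower, and at 4-fold the numbers were 281 and 64. The median log2 difference, mural minus cumulus, over all genes was -0.08. Groups did not overlap for 3180 genes on the higher side (25.8%) and 3946 on the lower side (32.1%). Of all calls 46.0% were higher in mural cells, and this split depended on scaling: with each library set to the same FPKM sum, 2413 genes were higher and 957 lower, and the median of all genes was 0.15. Without mural library 2 the counts were 312 higher and 91 lower, without mural library 1 they were 598 and 365, and without cumulus library 2 they were 667 and 500. With each library left out in turn, 260 genes higher and 83 genes lower in mural cells passed every time. Of the 248 genes named by rule that passed, 104 did so in all 5 of these fits, and they are called stable here. A further 46 failed only without mural library 2, a fit in which the lone mural library is assumed to vary like the cumulus libraries.

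**Figure D2:**
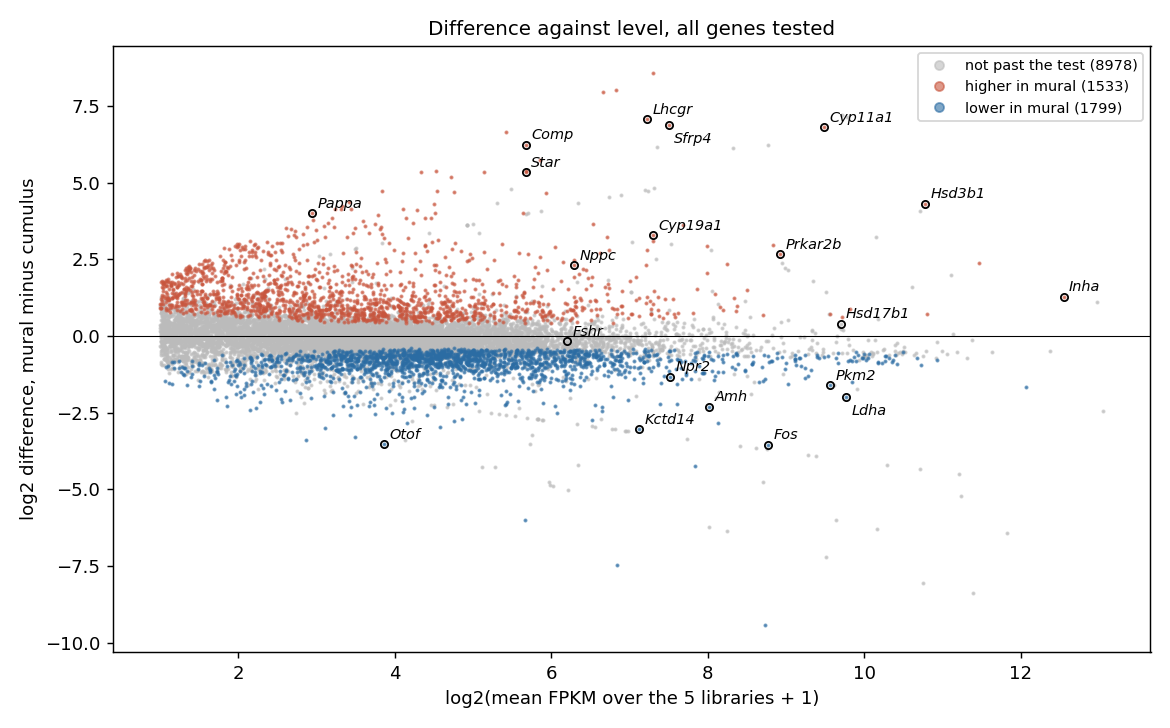
Log2 difference, mural minus cumulus, against the log2 mean FPKM of the 5 libraries for the 12310 genes tested, coloured by the result of the test. Once the short Mir and Snor genes are left out, 27 genes differ by at least 4 on the mural side, among them Lhcgr (7.07), Sfrp4 (6.88), Cyp11a1 (6.81) and Comp (6.24), and 1 gene does so on the cumulus side.

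Lhcgr, the receptor of luteinizing hormone, differed most among the named genes. It stood at 2.02, 1.41 and 1.63 FPKM in cumulus libraries 1 to 3 and at 279.9 and 459.4 FPKM in mural libraries 1 and 2. The mural mean was 219-fold higher, with a log2 difference of 7.07 ± 0.24 (SE, here and below; adjusted p = 0.000612). Fshr, the receptor of follicle-stimulating hormone, gave 79.3, 83.5 and 66.6 FPKM against 68.7 and 66.0 FPKM. Its groups overlapped, and the log2 difference of -0.17 had a 95% interval from -0.52 to 0.17. The receptor of prolactin, Prlr, stood at 0.819, 2.57 and 1.64 FPKM in cumulus and 37.5 and 65.4 FPKM in mural cells (log2 difference 4.29 ± 0.36, adjusted p = 0.00355). Lhcgr and Prlr were both stable.

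Of 25 tested genes of gonadotropin and cyclic AMP signalling, these 3 receptors included, 48% passed, against 27.1% of all genes tested. In mural cells 8 of the 25 were higher and 4 lower. With 1 library left out, 3 to 7 of them were higher and 1 to 4 lower, and both counts were lowest without mural library 2. Prkar2b, a regulatory subunit of protein kinase A, gave 146.5, 178.5 and 141 FPKM in cumulus and 937.1 and 1031 FPKM in mural cells, a 6.34-fold difference (log2 2.66 ± 0.15, adjusted p = 0.00168). The related subunit Prkar2a differed the other way, with 15.6, 16.1 and 14.7 FPKM in cumulus and 6.11 and 6.50 FPKM in mural cells (log2 -1.17, adjusted p = 0.00542). The adenylate cyclase gene Adcy6 was higher in mural cells, at 16.3 and 14.1 FPKM against 4.46 to 5.50 FPKM. Rgs2, which dampens G protein signalling, was lower, at 73.9 and 59.0 FPKM against 170.7, 176.4 and 180.3 FPKM (log2 -1.40, adjusted p = 0.00473). Prkar2b and Rgs2 were stable, while Prkar2a and Adcy6 did not pass without mural library 2.

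Of 19 tested genes of steroid synthesis, 12 were higher and 1 was lower in mural cells, with a median log2 difference of 1.14, and 8 of the 12 were stable. Of the 19 genes 68.4% passed, against 27.1% of all genes tested. Star, which moves cholesterol into mitochondria, stood at 2.02, 1.47 and 1.89 FPKM in cumulus and at 73.5 and 171.1 FPKM in mural cells. Cyp11a1, which cuts the side chain of cholesterol to give pregnenolone, stood at 18.0, 13.9 and 9.74 FPKM against 1067 and 2460 FPKM, a 127-fold difference in means (log2 6.81 ± 0.41, adjusted p = 0.00168). Both genes were higher in mural library 2 than in mural library 1, and the groups did not overlap. Fdx1, the ferredoxin that passes electrons to this enzyme, gave 31.2 to 38.4 FPKM in cumulus and 322.3 and 596.3 FPKM in mural cells.

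Hsd3b1, which turns pregnenolone into progesterone, was among the most abundant mural transcripts, at 3550 and 4604 FPKM against 193.8, 234.7 and 183.7 FPKM (log2 4.31 ± 0.19, adjusted p = 0.00113). Its paralog Hsd3b6 stood at 34.8 and 47.4 FPKM against 2.04 to 2.66 FPKM, and reads shared between these near-identical genes may be split. Cyp19a1, the aromatase that makes estradiol, was 9.94-fold higher in mural cells, with 323.5 and 357.5 FPKM against 32.5, 40.0 and 30.2 FPKM. Hsd17b1, which reduces estrone to estradiol, was high in both cell types, at 943, 752.5 and 538.2 FPKM in cumulus and 932 and 988 FPKM in mural cells. Its groups overlapped, and the 95% interval of the log2 difference ran from -0.24 to 1.04. Cyp17a1, the androgen-making enzyme known from theca, stood at 61.5 and 63.0 FPKM in mural cells and at 1.45, 0.506 and 0.389 FPKM in cumulus cells. It was nearly equal in the mural libraries, whereas the summed theca and stroma markers, of which it is one, were at 115.1 and 210.0 FPKM, and their part in its difference was not tested.

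**Figure D3:**
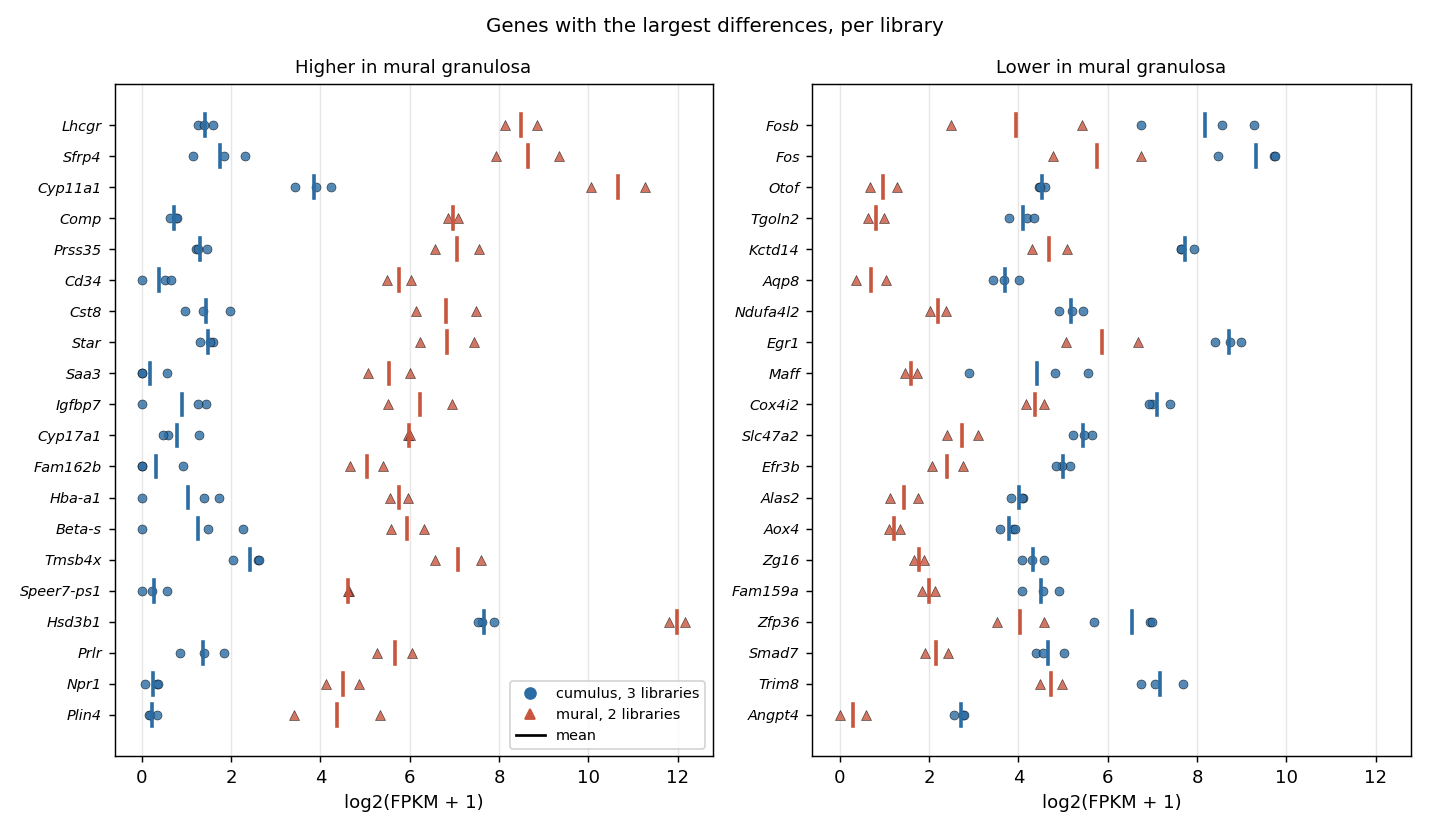
Log2(FPKM + 1) in each library for the 20 genes with the largest differences in each direction among those named by rule (circles, cumulus; triangles, mural; bars, means). On the mural side Lhcgr lies 7.07 log2 units apart, whereas on the cumulus side the largest separations belong to Fosb and Fos, whose values are spread widely among libraries of 1 cell type.

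Cholesterol for steroid synthesis comes from lipoproteins, from stores and from synthesis in the cell. Among 16 tested genes of uptake and storage 7 were higher and 3 lower in mural cells (median log2 difference 0.63), and without mural library 2 these counts were 4 and 0. The 5 receptors of the list went mostly the other way, with 1 higher, 3 lower and a median log2 difference of -0.63. The lower receptors, named after their values were seen, were Lrp8 (14.1 and 19.1 FPKM in mural, 30.2 to 36.9 FPKM in cumulus cells), Lrp1 (64.5 and 48.6 FPKM against 92.5 to 119.7 FPKM) and Vldlr (4.48 and 4.36 FPKM against 6.41 to 8.40 FPKM). The higher receptor was Scarb1, which takes up cholesterol from high-density lipoprotein. It gave 424.3 and 777.7 FPKM in mural and 220, 214.5 and 173.8 FPKM in cumulus cells, and passed (adjusted p = 0.0176) except without mural library 2 or cumulus library 2. Soat1, which esterifies cholesterol for storage, was 4.17-fold higher in mural cells, at 127.2 and 169 FPKM against 31.1, 35.8 and 39.7 FPKM. Lysosomal Lipa stood at 18.0 and 19.9 FPKM against 4.78 to 5.46 FPKM, and Npc2, which carries cholesterol out of lysosomes, at 64.7 and 94.8 FPKM against 27.5 to 29.7 FPKM. Apoe, a lipoprotein carrier, was nearly constant within each group, at 55.0 and 61.4 FPKM against 7.35, 8.11 and 7.61 FPKM (log2 2.77 ± 0.12, adjusted p = 0.00113). Plin4, which coats lipid droplets, stood at 9.69 and 39.3 FPKM against 0.112 to 0.258 FPKM. Of these, Soat1, Lipa, Npc2, Apoe and Plin4 were stable. Of the 16 tested genes of uptake and storage 62.5% passed, against 27.1% of all genes tested.

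Cholesterol synthesis itself showed a median log2 difference of 0.06 over 23 tested genes, 4 of them higher and 2 lower. In either direction 26.1% of the list passed, near the 27.1% of all genes tested. Of the higher genes 3 act in the last steps: Ebp (25.9 and 31.1 FPKM in mural, 14.2 to 15.2 FPKM in cumulus cells), Sc5d (69.6 and 111.6 FPKM against 28.9 to 39.1 FPKM) and Dhcr7 (58.6 and 116.4 FPKM against 37.6 to 41.9 FPKM). None of the 23 genes was stable, and without mural library 2 the counts were 0 higher and 1 lower.

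The guanylyl cyclase pathway that keeps oocytes in meiotic arrest was split between the cell types, in both directions. Nppc, the precursor of C-type natriuretic peptide, gave 150.3 and 146.8 FPKM in mural and 34.1, 33.6 and 21.3 FPKM in cumulus cells. Npr2, the receptor of that peptide, gave 105.8 and 84.2 FPKM in mural and 277.3, 235.2 and 209.1 FPKM in cumulus cells (log2 -1.33 ± 0.18, adjusted p = 0.00829). Both passed in every fit except the one without mural library 2. Npr1, which binds atrial natriuretic peptide and is best known from vessels and kidney, stood at 16.6 and 28.0 FPKM in mural cells and at 0.0511, 0.268 and 0.289 FPKM in cumulus cells, and was stable. Endothelial markers were likewise higher in mural library 2 than in library 1, and their part in the level of Npr1 was not tested. Impdh2 and Gmps, enzymes of GTP supply, were lower in mural cells, at 50.1 and 54.8 FPKM against 90.8 to 100.9 FPKM and at 11.7 and 12.3 FPKM against 18.0 to 19.2 FPKM. Guk1, which phosphorylates GMP, had overlapping groups (log2 -0.11, adjusted p = 0.711). Of the enzymes that break down cGMP, Pde5a was higher in mural cells, at 2.51 and 3.71 FPKM against 0.756 to 0.831 FPKM, and Pde9a was lower, at 1.53 and 1.32 FPKM against 2.66 to 4.57 FPKM. Both values are near the floor of the filter.

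In the TGF-beta family 41.9% of 43 tested genes passed, against 27.1% of all genes tested. In mural cells 11 of the 43 were higher and 7 lower, with a median log2 difference of 0.06. With 1 library left out, 2 to 10 were higher and 1 to 7 lower, and both counts were lowest without mural library 2. Among the ligands, Inha, the alpha subunit of inhibin, gave 9833 and 8572 FPKM in mural and 4911, 3811 and 2871 FPKM in cumulus cells. Inhba, a beta subunit, gave 1096 and 1375 FPKM against 797, 711.2 and 540.3 FPKM (adjusted p = 0.0388), and it failed in every fit with a library left out except that without cumulus library 3. The other beta subunit, Inhbb, had overlapping groups, at 1224 and 1057 FPKM against 2265, 1612 and 1196 FPKM (adjusted p = 0.239). Cumulus library 3 was the lowest of the cumulus libraries for all 3 subunits. Amh, anti-Mullerian hormone, stood at 426, 366 and 317.7 FPKM in cumulus cells and at 144.5 and 37.2 FPKM in mural cells (adjusted p = 0.0326). The groups did not overlap, and mural library 2 was far below mural library 1. It failed without mural library 2 and without each of the cumulus libraries. Bmp6 was 3.33-fold lower in mural cells and stable, at 8.35 and 6.68 FPKM against 26.5, 22.8 and 25.9 FPKM.

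Among the receptors, Amhr2, the receptor of anti-Mullerian hormone, gave 81.3 and 68.5 FPKM in mural and 89.5, 79.7 and 58.9 FPKM in cumulus cells, with a 95% interval of the log2 difference from -0.52 to 0.51. Bmpr2, which binds GDF9 and BMP15, gave 76.4 and 94.2 FPKM against 55.9, 74.8 and 60.2 FPKM and did not pass (adjusted p = 0.134). Tgfbr1 was higher in mural cells, at 48.2 and 47.6 FPKM against 15.5, 20.4 and 23.2 FPKM, but not when either mural library was left out. A pair of inhibitors was lower in mural cells. Smad7, which blocks signalling of the receptors and is itself a target of the pathway, stood at 31.4, 19.9 and 22.5 FPKM in cumulus and 4.35 and 2.77 FPKM in mural cells (log2 -2.49 ± 0.25, adjusted p = 0.00512). Nog, which binds BMPs, stood at 4.94, 4.34 and 3.06 FPKM against 0.487 and 0.11 FPKM. Fstl1, a secreted protein related to follistatin, was higher in mural cells at 5.80 and 11.7 FPKM against 0.608 to 0.753 FPKM, whereas Fst, follistatin, did not pass (512.1 and 499.7 FPKM against 415 to 441.9 FPKM, adjusted p = 0.181).

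Genes of the insulin-like growth factor system that were higher in mural cells included binding proteins and a protease. Of 14 tested genes of the system 8 were higher and 1 was lower in mural cells, with a median log2 difference of 1.02. Over all genes tested 12.5% were higher and 14.6% lower. Pappa, Igfbp6 and Igfbp3, near 0 in cumulus cells, passed the filter only through their mural values, so they could only come out higher. The ligand Igf1 was the lower gene, at 22.96 and 15.1 FPKM in mural and 36.4, 37.1 and 36.1 FPKM in cumulus cells (log2 -0.93 ± 0.19, adjusted p = 0.021). Its receptor Igf1r had overlapping groups (adjusted p = 0.459), while the insulin receptor Insr gave 17.6 and 16.7 FPKM in mural and 4.73 to 5.96 FPKM in cumulus cells. Pappa, the protease that releases the factors from binding proteins, stood at 14.3 and 18.8 FPKM in mural cells and at 0.0911, 0.0274 and 0.147 FPKM in cumulus cells (adjusted p = 0.00128). Igfbp7 stood at 44.8 and 122.9 FPKM against 1.72, 0 and 1.39 FPKM, and Igfbp6 at 5.09 and 6.62 FPKM against 0.182, 0 and 0.147 FPKM. Pappa and Igfbp6 were stable, and the counts of higher genes were 5 without mural library 1 and 3 without mural library 2. Igfbp7, Igfbp3 and the collagens named further on were higher in mural library 2 than in library 1, as the stromal and endothelial markers were, and the part of such cells was not tested.

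Of 30 tested WNT genes 50% passed, against 27.1% of all genes tested. In mural cells 10 of the 30 were higher and 5 lower (median log2 difference 0.16, which turned negative with quantile normalization). With 1 library left out, 4 to 10 were higher and 1 to 5 lower, and mural library 2 gave the lowest count of lower genes. Sfrp4, a secreted WNT inhibitor known from luteinizing granulosa cells, had the second largest difference among the named genes, at 244.7 and 648.8 FPKM in mural and 3.94, 1.20 and 2.56 FPKM in cumulus cells (log2 6.88 ± 0.51, adjusted p = 0.00276). Among the receptors, Fzd4 was higher (7.17 and 9.99 FPKM against 1.74 to 1.98 FPKM), and Lgr6, a receptor of R-spondins, was lower in mural cells (1.18 and 0.94 FPKM against 4.91 to 5.25 FPKM). Sfrp4, Fzd4 and Lgr6 were stable. The nuclear factor Tcf7 was lower in mural cells, at 23.96 and 22.7 FPKM against 55.6, 63.9 and 45.5 FPKM.

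Other paracrine genes passed at shares above and below that of all genes tested, 27.1% in either direction. The share was 40% of 10 tested genes of the EGF network and cumulus expansion, and 23.1% of 13 KIT and growth factor genes. Kitl, the ligand that granulosa cells present to KIT on the oocyte and on theca cells, was 5.03-fold higher in mural cells and stable, at 33.6 and 36.1 FPKM against 5.49, 7.66 and 7.62 FPKM. Egfr, which receives the ovulatory EGF-like signals, was lower at 8.45 and 9.34 FPKM against 15.99, 17.8 and 15.7 FPKM (log2 -0.82, adjusted p = 0.0115). Areg, such a ligand, stood at 3.53 and 3.80 FPKM in mural cells and at 0, 0 and 0.16 FPKM in cumulus cells. The angiogenic factor Vegfa was lower in mural cells, at 53.6 and 60.4 FPKM against 145.2, 118 and 96.0 FPKM (adjusted p = 0.018). Neither Egfr nor Vegfa was stable. Of 10 tested Notch genes 2 passed (20%), both lower in mural cells. The list's median changed sign when libraries were set to the same FPKM sum.

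Of genes of axon guidance, which also act between cells in other tissues, 53.7% of 41 tested passed, against 27.1% of all genes tested. In mural cells 17 of the 41 were higher and 5 lower, with a median log2 difference of 0.45. Over all genes tested 12.5% were higher and 14.6% lower. Sema4d stood out on the cumulus side, at 20.6, 18.1 and 16.6 FPKM against 3.25 and 2.90 FPKM in mural cells (log2 -2.25 ± 0.15, adjusted p = 0.00201). Plxnb1, the receptor that semaphorin 4D binds, had the opposite pattern, at 7.21, 5.40 and 6.41 FPKM in cumulus and 28.5 and 31.3 FPKM in mural cells (log2 2.08, adjusted p = 0.00276). Both genes were stable. Plxnc1, the receptor of semaphorin 7A, was likewise higher in mural cells and stable, at 128.1 and 124.2 FPKM against 49.4, 53.8 and 53.9 FPKM. The list had 6 higher genes and 1 lower gene without mural library 2, and 8 and 2 without mural library 1 or cumulus library 2.

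Cell contacts differed by type of contact. Gja1, the connexin that joins granulosa cells, gave 2466 and 2209 FPKM in mural and 1425, 1528 and 1295 FPKM in cumulus cells (log2 0.72, adjusted p = 0.0275), and the call was lost when any library but cumulus library 3 was left out. Myo10, the motor at the tips of filopodia that is needed for the projections to the oocyte, was lower in mural cells, at 16.9 and 15.2 FPKM against 41.8, 46.2 and 44.0 FPKM (log2 -1.40 ± 0.12, adjusted p = 0.0035). Fscn1, which bundles actin in such projections, followed the same direction, at 120 and 108.6 FPKM against 294.9, 247.8 and 194.1 FPKM. F11r, a junctional adhesion molecule, was higher in mural cells, at 35.4 and 32.8 FPKM against 3.21, 4.97 and 4.99 FPKM. Over the 24 tested genes of junctions and projections 6 were higher and 4 lower, against 2 and 2 without cumulus library 2 and 1 and 1 without mural library 2. Of the 24 genes 41.7% passed with all 5 libraries, against 27.1% of all genes tested. Myo10 and F11r were stable, and Fscn1 was not.

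Among channels, Kcnh2, a voltage-gated potassium channel, was nearly identical within each group, at 30.3 and 30.4 FPKM in mural and 1.72, 1.55 and 1.78 FPKM in cumulus cells (log2 3.55 ± 0.13, adjusted p = 0.000905). Kcnt1, a sodium-activated potassium channel, gave 9.93 and 8.93 FPKM against 1.03 to 1.55 FPKM, and both were stable. Of the 18 tested potassium channel genes, 6 were higher and 3 lower, 50% in either direction against 27.1% of all genes tested. Aqp8, a water channel, was lower in mural cells, at 1.05 and 0.295 FPKM against 15.1, 9.71 and 11.8 FPKM, and stable. Cldn3, a claudin of tight junctions, stood at 3.48 and 4.28 FPKM in mural cells and at 0.186, 0 and 0 FPKM in cumulus cells. It passed the filter only through its mural values.

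Genes of the basal lamina and matrix were mostly higher in mural cells. Of 27 tested basal lamina genes 16 were higher and 2 lower (median log2 difference 1.09). Of 20 symbols that start with Col and a digit 17 were higher (median 1.91), and of 20 proteases and inhibitors 12 were higher (median 1.24). The Col symbols include Col4a3bp, which encodes a lipid carrier and no collagen. Of 44 Col symbols 20 reached the filter, and those near 0 in cumulus cells did so only through their mural values. Such genes could only come out higher. Over all genes tested 12.5% were higher. Col4a1 and Col4a2, which form the type IV collagen of basal laminae, gave 21.6 and 56.1 FPKM and 13.4 and 34.99 FPKM in mural cells, against 0.614 to 1.54 FPKM and 0.832 to 1.21 FPKM in cumulus cells. Lama4, a laminin chain known from vessels, gave 18.3 and 23.6 FPKM against 2.97 to 3.72 FPKM, and Itga5, a fibronectin receptor subunit, 12.2 and 14.9 FPKM against 1.23 to 2.26 FPKM. The fibrillar collagens of stroma were low in mural cells and close to 0 in cumulus cells: Col1a1 gave 4.51 and 13.1 FPKM, Col1a2 6.75 and 19.8 FPKM and Col3a1 7.09 and 26.3 FPKM, against at most 0.28 FPKM.

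Each of these 5 collagen genes was higher in mural library 2 than in library 1, as were the sums of the endothelial markers at 82.9 and 37.0 FPKM. The part of stromal and vascular cells in these differences was not tested. Comp, a matrix protein known from cartilage, did not follow that pattern, at 134.3 FPKM in mural library 1 and 115.7 FPKM in library 2 against 0.71, 0.559 and 0.717 FPKM in cumulus cells (log2 6.24 ± 0.14, adjusted p = 0.000157, the smallest of the named genes). Plau, the urokinase that activates plasminogen, was also even, at 54.4 and 62.2 FPKM against 9.41, 11.5 and 8.71 FPKM. Prss35, a serine protease-like protein of theca and granulosa cells, gave 93.9 and 185.7 FPKM against 1.32, 1.40 and 1.75 FPKM. Timp3, an inhibitor of metalloproteases, gave 16.6 and 26.6 FPKM against 0.847 to 2.20 FPKM. These 4 genes were stable, as were Col4a1, Col4a2, Lama4, Itga5, Col1a1, Col1a2 and Col3a1. Without mural library 2 the number of higher genes was 7 in the basal lamina list, 11 among the Col symbols and 4 among the proteases and inhibitors, and without mural library 1 it was 9, 11 and 8.

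**Figure D4:**
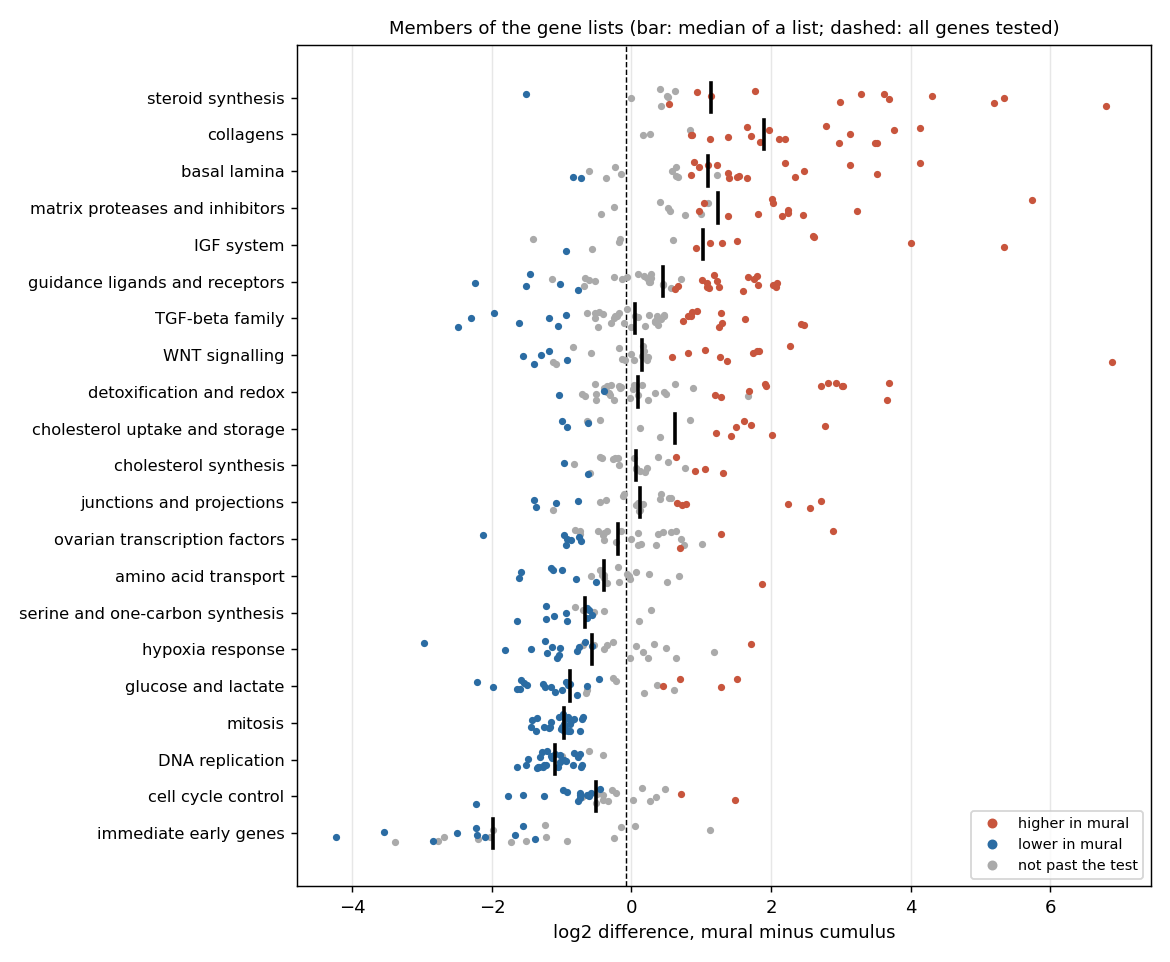
Log2 difference, mural minus cumulus, of each tested member of 21 gene lists, coloured by the result of the test, with the median of each list as a bar and that of all genes (-0.08) as a dashed line. Collagen, steroid and basal lamina genes lie mostly to the right, and the mitosis (25 of 25 lower) and DNA replication (26 of 29 lower) genes lie in a narrow band to the left.

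On the cumulus side the most abundant gene past the test at 2-fold was Ldha, lactate dehydrogenase, at 1400, 1261 and 1078 FPKM against 304.3 and 322.1 FPKM in mural cells (log2 -1.98 ± 0.16, adjusted p = 0.0034). Of 16 tested glycolytic enzymes 13 were lower and 1 was higher in mural cells, with a median log2 difference of -1.05, and over the 29 genes of glucose and lactate handling 18 were lower and 4 higher. Pfkp, the platelet isoform of phosphofructokinase, was 4.92-fold lower, at 11.96 and 13.1 FPKM against 67.0, 61.3 and 56.4 FPKM (log2 -2.21 ± 0.13, adjusted p = 0.00168). Pkm2, pyruvate kinase, gave 321.1 and 360.5 FPKM against 1185, 1017 and 912.1 FPKM. Triose phosphate isomerase, Tpi1, gave 221.9 and 249 FPKM against 826, 700.5 and 606.9 FPKM, and phosphoglycerate kinase, Pgk1, gave 176.6 and 206.2 FPKM against 543, 557.4 and 525.4 FPKM. These enzymes were named by rules that favour a small p, or a high level among genes past the test, so separation was likely beforehand. Every cumulus library exceeded both mural libraries for each of them, and for 13 of the 16 glycolytic enzymes tested. Over all genes tested 14.6% were lower, and 32.1% did not overlap on the lower side. Pfkfb3, which makes an activator of phosphofructokinase, and Pdk1, which shuts pyruvate out of mitochondria, were 13.1 and 10.8 FPKM and 7.20 and 7.30 FPKM in mural cells, against 29.6 to 30.9 FPKM and 17.0 to 19.8 FPKM. Cumulus library 2, in which 11 of 16 oocyte markers were listed at 0, had 1261 FPKM of Ldha and 61.3 FPKM of Pfkp, within the range of the other cumulus libraries. These values come from 1 library, and the part of oocyte RNA in the differences was not tested. Ldha, Pfkp, Pgk1 and Pfkfb3 were stable, and the list had 10 lower genes without mural library 1 and 4 without mural library 2.

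Many of these enzymes are textbook targets of hypoxia-inducible factors, whose core site in DNA is ACGTG. Of 27 tested genes of the hypoxia response 13 were lower and 1 was higher in mural cells, with a median log2 difference of -0.57, and 4 of the lower genes were stable. The number of lower genes was 7 without cumulus library 2, 6 without mural library 1 and 4 without mural library 2. Epas1, which encodes the factor HIF-2 alpha, gave 34.7 and 30.1 FPKM in mural and 94.7, 92.2 and 82.4 FPKM in cumulus cells (log2 -1.44, adjusted p = 0.00367). Ndufa4l2, a mitochondrial protein induced by low oxygen, was 9.76-fold lower in mural cells, at 3.09 and 4.24 FPKM against 42.4, 29.0 and 35.9 FPKM. Ak4, a mitochondrial adenylate kinase, gave 7.57 and 7.05 FPKM against 27.1, 28.9 and 28.3 FPKM. Cox4i2, the subunit of cytochrome oxidase used at low oxygen and not in this list, was 6.95-fold lower, at 17.0 and 22.8 FPKM against 168.3, 125.9 and 120.3 FPKM. All 4 were stable. Of the 27 tested hypoxia genes 51.9% passed, against 27.1% of all genes tested.

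Promoter sequence was taken from RefSeq on build GRCm38.p6, from 250 bases before to 50 after each start site, for the 8636 of 12310 tested genes that matched by symbol. The letters ACGTG, on either strand and including those inside the palindrome CACGTG, occurred in a window of 2563 genes (29.7%), of 15 of 22 genes of the hypoxia list and of 9 of 15 glycolytic enzymes. They occurred in 32.0% of the genes lower and 27.3% of the genes higher in mural cells. The hypoxia list was made of known targets of these factors, so the share among its members is no independent sign. The 250 bases before the start sites of Ldha and Pgk1, shown because both genes were stable and among the most abundant cumulus transcripts, are given 5′ to 3′ with each match in capitals.
Ldha, chr7:46845554-46845803, plus strand: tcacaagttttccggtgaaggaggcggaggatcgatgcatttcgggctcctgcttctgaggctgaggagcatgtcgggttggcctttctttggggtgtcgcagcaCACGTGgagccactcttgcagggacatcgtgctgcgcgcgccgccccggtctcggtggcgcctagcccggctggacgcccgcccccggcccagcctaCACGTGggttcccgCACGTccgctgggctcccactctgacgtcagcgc
Pgk1, chrX:106186850-106187099, plus strand: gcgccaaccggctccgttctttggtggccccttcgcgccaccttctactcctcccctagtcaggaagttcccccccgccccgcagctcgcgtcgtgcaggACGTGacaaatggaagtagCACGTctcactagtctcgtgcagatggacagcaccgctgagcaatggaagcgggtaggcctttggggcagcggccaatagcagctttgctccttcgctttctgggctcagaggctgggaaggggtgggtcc
In Ldha the matches lie in a pair of CACGTG palindromes and a single copy on the opposite strand closer to the start, and in Pgk1 in 2 single copies at positions -150 and -131 from it, 1 on each strand. In the 250 bases before the start alone, ACGTG occurred in 2201 genes (25.5%), in 14 of 22 hypoxia genes and in 6 of 15 glycolytic enzymes. RefSeq gives Ldha another start site further on, whose 250 preceding bases hold no match.

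Genes that feed amino acids and one-carbon units into growth were lower in mural cells in part. Of 23 amino acid transporters tested 7 were lower and 1 was higher (median log2 difference -0.40). Of 16 genes of serine, folate and purine synthesis 10 were lower (median -0.67). In either direction 34.8% and 62.5% of these lists passed, against 27.1% of all genes tested. Shmt2, which makes one-carbon units from serine in mitochondria, gave 30.7 and 29.4 FPKM in mural and 110.5, 97.0 and 82.8 FPKM in cumulus cells (log2 -1.65, adjusted p = 0.00416). Slc6a15, a transporter of branched amino acids, gave 12.8 and 11.1 FPKM against 35.7, 43.2 and 36.6 FPKM. Slc7a8, a transporter of neutral amino acids, was the higher one, at 58.0 and 53.1 FPKM against 18.5, 15.3 and 10.8 FPKM. Slc38a3, a transporter known for supplying the oocyte, did not pass and its groups overlapped, at 43.8 and 19.2 FPKM against 52.1, 51.2 and 32.1 FPKM (adjusted p = 0.32). Shmt2 and Slc6a15 were stable. The transporters had 3 lower genes without cumulus library 2, 4 without mural library 1 and 1 without mural library 2. The serine and one-carbon list had 3, 2 and 1 in the same fits, and 6 without cumulus library 1.

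Genes of DNA replication and mitosis were lower in mural cells almost throughout. Of 29 tested genes of DNA replication 26 were lower, with a median log2 difference of -1.10, and the groups did not overlap for any of the 29. Over all genes tested 14.6% were lower, and 32.1% did not overlap on the lower side. Of 25 mitotic genes tested 25 were lower, with a median of -0.97. Mcm6, part of the replicative helicase, gave 42.6 and 41.5 FPKM in mural and 112.3, 113.9 and 98.6 FPKM in cumulus cells (log2 -1.34 ± 0.12, adjusted p = 0.00367). Its partner Mcm5 gave 26.2 and 25.3 FPKM against 86.2, 71.8 and 68.7 FPKM, and Pcna, the sliding clamp of DNA polymerases, gave 111.8 and 122.6 FPKM against 274.7, 279.3 and 260.3 FPKM. Aurka, a spindle kinase, gave 18.6 and 18.1 FPKM against 52.3, 46.5 and 48.3 FPKM (log2 -1.37, adjusted p = 0.0034). Birc5, a subunit of the chromosomal passenger complex, gave 46.1 and 35.9 FPKM against 108.4, 101.8 and 129.7 FPKM. Cumulus library 2, which was almost free of oocyte markers, had 113.9 FPKM of Mcm6 and 46.5 FPKM of Aurka. Here too the values come from 1 library, and the part of oocyte RNA was not tested. Mcm6, Mcm5, Mcm10, Mcm4, Pcna and Aurka were stable. Without mural library 2, 5 replication genes and 1 mitotic gene passed, without mural library 1, 11 and 9 did, and without cumulus library 2, 17 and 15 did.

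Regulators of the cycle were mixed, with 14 of 29 tested genes lower and 2 higher. That is 55.2% in either direction, against 27.1% of all genes tested. Ccnd2, the D-type cyclin that granulosa cells use, gave 70.7 and 73.9 FPKM in mural and 126.1, 130 and 109.5 FPKM in cumulus cells. E2f1, which drives genes of DNA synthesis, gave 15.5 and 12.8 FPKM against 42.4, 30.6 and 32.9 FPKM. Gadd45g, a growth arrest gene, was also lower in mural cells, at 15.5 and 10.4 FPKM against 52.3, 48.7 and 37.5 FPKM. None of the 29 genes was stable, and the number of lower genes was 0 without mural library 2, 2 without mural library 1 or cumulus library 2 and 7 without cumulus library 1.

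Textbook elements of cell cycle promoters were searched. TTTCCCGC, a site of E2F factors, occurred on either strand in 216 of 8636 genes (2.5%) and in 6 of 24 replication genes. TTTGAA, known as the cell cycle homology region of genes expressed in mitosis, occurred in 1207 genes (14%) and in 14 of 20 mitotic genes. The count depends on the window: in the 250 bases before the start alone, TTTGAA occurred in 1080 genes (12.5%) and in 7 of 20 mitotic genes, and TTTCCCGC in 183 genes (2.12%) and in 3 of 24 replication genes. Mcm7, Cdc20 and Ccnb2, chosen after their values and sequences were seen because a match lies before the start, show both elements, with the match in capitals.
Mcm7, chr5:138171884-138172133, minus strand: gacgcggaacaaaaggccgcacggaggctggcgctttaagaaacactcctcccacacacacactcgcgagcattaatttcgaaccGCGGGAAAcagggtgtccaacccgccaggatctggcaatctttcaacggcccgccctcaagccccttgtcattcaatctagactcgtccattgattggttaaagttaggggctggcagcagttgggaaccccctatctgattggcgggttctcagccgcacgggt
Cdc20, chr4:118437344-118437593, minus strand: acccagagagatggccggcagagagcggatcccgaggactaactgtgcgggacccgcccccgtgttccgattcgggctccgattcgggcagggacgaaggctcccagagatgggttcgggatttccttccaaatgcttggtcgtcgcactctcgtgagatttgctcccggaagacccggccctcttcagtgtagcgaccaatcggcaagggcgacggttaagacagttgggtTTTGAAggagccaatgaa
Ccnb2, chr9:70421555-70421804, minus strand: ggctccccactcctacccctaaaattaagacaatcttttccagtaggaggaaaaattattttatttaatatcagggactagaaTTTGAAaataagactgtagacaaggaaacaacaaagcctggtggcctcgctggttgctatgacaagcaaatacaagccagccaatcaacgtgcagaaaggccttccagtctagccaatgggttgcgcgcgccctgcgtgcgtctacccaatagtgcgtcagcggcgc
RefSeq gives Mcm7 another start site, whose 250 preceding bases hold no match. The match shown for Mcm7 is on the opposite strand, and that in Cdc20 begins at position -18 from the start site. Mcm7, a helicase subunit, gave 45.9 and 43.0 FPKM in mural and 129.2, 115.8 and 96.6 FPKM in cumulus cells. Cdc20, an activator of the anaphase-promoting complex, gave 36.6 and 36.2 FPKM against 112.3, 96.6 and 78.1 FPKM. Ccnb2, a mitotic cyclin, gave 58.6 and 52.4 FPKM against 118.1, 117.1 and 83.9 FPKM.

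Immediate early genes, which are induced within minutes of a stimulus, gave the largest differences on the cumulus side and the widest spread. Of 25 tested 10 were lower in mural cells (40%, against 14.6% of all genes tested), with a median log2 difference of -1.99. Fos gave 350.7, 850.1 and 851.7 FPKM in cumulus and 106.2 and 26.4 FPKM in mural cells (log2 -3.55 ± 0.68, adjusted p = 0.0186). Fosb gave 106.1, 375.5 and 614.2 FPKM against 41.7 and 4.60 FPKM (log2 -4.24 ± 1.08, adjusted p = 0.0381), and Egr1 339.5, 424.1 and 502.3 FPKM against 100.7 and 32.4 FPKM. For all 3 genes cumulus library 1 was the lowest cumulus library and mural library 1 the higher mural library. Jund, which is less inducible, was even within groups and was the stable member, at 200, 189.5 and 195.4 FPKM against 77.9 and 55.9 FPKM. The count moved with single libraries: 19 genes were lower without cumulus library 1, 2 without cumulus library 2, 5 without mural library 1 and 1 without mural library 2.

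TGACG, the core of the element bound by CREB, occurred on either strand in 13 of 21 immediate early promoters and in 3081 of 8636 (35.7%) over all genes. The full palindrome TGACGTCA, which holds this core on both strands, occurred in 2 of the 21 and in 311 genes (3.6%) over all. Fos is shown because the gene is among the most abundant on the cumulus side, with the matches in capitals.
Fos, chr12:85473640-85473889, plus strand: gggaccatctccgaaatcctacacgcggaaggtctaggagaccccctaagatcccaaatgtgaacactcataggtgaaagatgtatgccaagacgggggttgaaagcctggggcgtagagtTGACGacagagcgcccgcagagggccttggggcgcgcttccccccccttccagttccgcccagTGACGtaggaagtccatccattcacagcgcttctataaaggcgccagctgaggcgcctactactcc
The copies begin at positions -129 and -66 from the start site. AAGGTCA, bound by NR5A factors, was found in 336 genes (3.89%) and in 0 of the 13 steroid synthesis genes with a sequence, and TGANTCA, the AP-1 site, in 487 genes (5.64%). Star, Comp, Ndufa4l2, Pkm2 and Epas1 were not matched by symbol.

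Of 32 tested transcription factors of the ovary 3 were higher and 7 lower in mural cells, against 1 and 0 without mural library 2 and 2 and 1 without mural library 1 or cumulus library 2. In either direction 31.2% of the list passed with all 5 libraries, near the 27.1% of all genes tested. Foxl2, which keeps granulosa identity, gave 135.5 and 139.6 FPKM in mural and 151.4, 85.6 and 52.8 FPKM in cumulus cells. The 95% interval of its log2 difference ran from -0.42 to 1.69. Nr5a1, a regulator of steroid genes, also had overlapping groups (adjusted p = 0.352), while its relative Nr5a2 was higher in mural cells, at 248.7 and 257.9 FPKM against 93.8, 122.2 and 96.3 FPKM (log2 1.28, adjusted p = 0.00721). Runx2 stood at 4.50 and 10.9 FPKM against 0.0365 to 0.157 FPKM, and its relative Runx1 was lower in mural cells, at 3.89 and 3.90 FPKM against 7.02 to 7.52 FPKM. Esr2, the main estrogen receptor of granulosa cells, had overlapping groups (adjusted p = 0.24). Runx2 was the stable gene of this list, and its median changed sign when libraries were set to the same FPKM sum.

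Retinoic acid genes divided by step. Aldh1a1, which makes retinoic acid, was 9.77-fold higher in mural cells, at 194.8 and 254.1 FPKM against 20.8, 23.96 and 24.1 FPKM (log2 3.23, adjusted p = 0.00128). Cyp26b1, which breaks it down and passed the filter only through its mural values, stood at 2.42 and 2.69 FPKM against 0.046 to 0.0877 FPKM. Crabp2, which carries it to the nucleus, was 4.12-fold lower in mural cells, at 40.7 and 35.8 FPKM against 191.9, 146.1 and 134.8 FPKM, and Stra6, a receptor for retinol uptake, gave 9.54 and 4.93 FPKM against 43.0, 34.98 and 30.3 FPKM. Aldh1a1 and Cyp26b1 were stable, whereas Crabp2 and Stra6 failed without mural library 2.

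Detoxifying enzymes were in part higher in mural cells, with 12 of 41 tested higher and 2 lower, 8 of the 12 being stable. In either direction 34.1% of the list passed with all 5 libraries, against 27.1% of all genes tested. Of 17 glutathione transferases 7 were higher and none lower (median log2 difference 0.88). Gsta4 gave 206.8 and 232.8 FPKM in mural and 33.0, 27.2 and 31.1 FPKM in cumulus cells, and Gstm7 gave 47.2 and 66.6 FPKM against 5.56, 6.21 and 6.22 FPKM. Members of this family are near-identical in places, so reads may be split among them. Sepp1, the selenium carrier selenoprotein P, gave 40.5 and 45.2 FPKM against 4.43, 5.44 and 4.45 FPKM (log2 2.93, adjusted p = 0.00128). Sod3, the extracellular superoxide dismutase, gave 17.3 and 20.3 FPKM against 1.29, 0.338 and 0.173 FPKM, whereas cytosolic Sod1 had overlapping groups, at 551.7 and 633.9 FPKM against 667.6, 557.1 and 589.5 FPKM (95% interval of the log2 difference -0.40 to 0.35).

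Further genes with large differences stand outside the pathway lists, some of them in the lists of cell type markers. On the mural side Clu, the secreted chaperone clusterin, gave 527.6 and 528.6 FPKM against 80.8, 63.0 and 63.1 FPKM, and Cst8, a cystatin of reproductive tissues, gave 69.5 and 176.5 FPKM against 1.58, 2.91 and 0.958 FPKM. Cd34, known from vessels and from granulosa cells of the follicle wall, stood at 44.3 and 64.7 FPKM against 0.436, 0 and 0.564 FPKM. Endothelial markers were likewise higher in mural library 2 than in library 1, and their part in the level of Cd34 was not tested. Hba-a1, a globin of red blood cells, was at 61.2 and 46.3 FPKM against 1.65, 2.29 and 0 FPKM, beside erythroid marker sums of 140.8 and 82.5 FPKM against 13.3 to 21.4 FPKM. On the cumulus side Alas2, the heme enzyme named for red blood cells, differed from the globins, at 16.2, 15.96 and 13.3 FPKM against 2.36 and 1.17 FPKM in mural cells. Otof, a calcium sensor of vesicle release known from hair cells, was 21.5-fold lower in mural cells, at 1.45 and 0.592 FPKM against 23.2, 21.1 and 21.5 FPKM (log2 -3.54 ± 0.21, adjusted p = 0.00168). Kctd14 gave 33.3 and 18.6 FPKM against 244.6, 198.8 and 197.1 FPKM, and Cobl, an actin nucleator, 2.57 and 2.58 FPKM against 14.9, 15.0 and 13.4 FPKM. Slc47a2, an exporter of organic cations, gave 7.55 and 4.26 FPKM against 49.1, 43.5 and 36.3 FPKM. Clu, Cst8, Cd34, Alas2, Otof, Kctd14, Cobl and Slc47a2 were stable, and Hba-a1 was not.

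Some abundant genes were close to equal. The 8 most abundant genes whose 95% interval lay within 0.5 log2 units of 0 included Hspa5, a chaperone of the endoplasmic reticulum, at 1034 and 954.1 FPKM in mural and 1078, 1170 and 1036 FPKM in cumulus cells. They also included P4hb, a disulfide isomerase (95% interval -0.32 to 0.36), the histone gene H3f3a (-0.31 to 0.33) and the myosin light chain gene Myl6 (-0.24 to 0.40).

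The 20 genes with the largest differences in each direction were set beside the other libraries of the series, as values without a test. In the cumulus-oocyte complexes from gonadotropin-primed mice aged 3 weeks (1 library each of BDF1 and DBA/2), all 20 mural-side genes were below both mural libraries, and 15 of the 20 cumulus-side genes were above both. The remaining cumulus-side genes were the immediate early genes Fosb, Fos, Egr1 and Zfp36, and Aox4. They stood at 2.96, 32.8, 19.3, 12.5 and 1.54 FPKM in the DBA/2 complexes, and in the BDF1 complexes each was above both mural libraries. Lhcgr stood at 0.34 and 0.693 FPKM, Cyp11a1 at 10.2 and 28.5 FPKM and Ldha at 1057 and 973.1 FPKM in the BDF1 and DBA/2 complexes. These complexes differ from the mural cells in age and strain as well. In cumulus cells of 10-month C57BL/6 mice all 20 cumulus-side genes were above both mural libraries in each of the 3 libraries, and 15 of the 20 mural-side genes were below both. Lhcgr stood there at 1.93, 12.5 and 62.7 FPKM.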

How the data were processed

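RNA-seq of 2 mural and 3 cumulus libraries was compared. The authors deposited FPKM per gene symbol and library. The submitters' processing notes name the build mm9 and the tools Cufflinks 2.1.0 and TopHat2 2.1.0. No source used here gives depth, read length, strandedness or annotation. Of the 23234 deposited symbols, 20841 were found among mouse gene names, and 1 repeated header line was dropped.

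The scale was log2(FPKM + 1), which understates differences of low genes. Genes with a mean of at least 1 FPKM over the 5 libraries entered limma 3.58.1 (R 4.3.3) with an intensity trend and 3 residual degrees of freedom. The test was two-sided, with Benjamini-Hochberg adjustment over all 12310 genes and a threshold of 0.05. A gene near 0 in either cell type passed the filter only through the other, so the filter set its direction. In data simulated for this comparison with 12310 genes, 21% of genes with a simulated log2 change of 1 were called. So were 71% of those with a change of 2 and 6 of 12110 genes with no change. Far fewer genes were changed there than the 27.1% called in the data, and errors were drawn independently for each gene and library. Recovery and false calls in the data may therefore differ.

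Genes were named by rule: per direction the 20 largest differences (at least 5 FPKM in the higher group, no overlap), the 10 most abundant at 2-fold and the 6 smallest p, up to 6 members of each list, fixed ovarian genes, and 8 abundant genes of near-equal level, without predicted, ribosomal, Mir and Snor genes. The latter 2 classes gave 15 calls among 163 tested. Members and lists were chosen with earlier results of these data known. Lists are described by counts and medians. Alternatives changed the pseudocount, filter, scaling, covariates, variance model and libraries. Promoters came from RefSeq, build GRCm38.p6, and 7 motifs were searched. Genes with near-identical copies or antisense partners are uncertain. Some results for genes named by the rule are not reported here.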

Additional observations from a re-analysis of the deposited data

How the results depend on the processing

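Against 1533 genes higher and 1799 lower in mural cells, a mean of at least 5 FPKM left 1002 higher. The same FPKM sum in each library gave 2413 higher and 957 lower, the same sum without Mir and Snor genes gave 1132 lower, and library weights gave 2397 higher and 3025 lower. Leaving out each library in turn gave 312 to 1380 higher and 91 to 1925 lower genes. The higher filter and the left-out fits have fewer genes or samples by construction. The scalings and library weights kept all 12310 genes and 5 libraries. Before scaling, the FPKM sums were 482704 and 470377 in mural libraries 1 and 2, and 552361 to 603460 in cumulus libraries. The cause of the shifts was not tested further. Other pseudocounts, no filter, median centring, quantile normalization, no trend, the 10-month libraries in the fit and oocyte markers as a covariate stayed within 1.5 times of both counts. Quantile normalization reversed Gnb2l1 to a log2 difference of 0.53 and Sod1 to 0.42, both then past the threshold. The cumulus and mural libraries share replicate numbers 1 and 2. Deviations of same-numbered libraries correlated at 0.0324 and 0.216. With 2 mural libraries the mural deviations mirror each other, so this check cannot tell whether same-numbered libraries share an animal or batch. With the replicate block, which leaves 1 residual degree of freedom, 1198 genes were higher and 1615 lower. With 2 mural libraries and unknown read depth, the spread of low genes is poorly known.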
